A study of Mus musculus with 4 samples.

Results

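The genes described here are 40 antioxidant, glutathione, thioredoxin and NRF2 pathway genes and metallothioneins, chosen by name and not by their measured values; glutathione transferases were not among them. They were read at every probe set that the array annotation assigns to the gene alone, which gave 74 probe sets for 36 of the 40 genes. Of these genes, 33 had a probe set with a detection call of Present on at least 2 of the 4 arrays and were tested, among 10350 tested genes of 18193 with such a probe set. The deposited data were GeneChip Mouse Genome 430 2.0 arrays of non-tumorous liver from G9aKO (Alb-Cre; G9aflox/flox) and WT (Alb-Cre; G9a+/+) mice, with 2 arrays per genotype. G9a, encoded by Ehmt2, methylates histone H3 at lysine 9, and the albumin-driven Cre that both genotypes carried acts in hepatocytes, so that other liver cells of the G9aKO mice keep the gene. All mice were males backcrossed to C57BL/6, had received diethylnitrosamine (DEN, 25 mg/kg) at 15 days of age and then 22 weekly injections of carbon tetrachloride (CCl4, 0.5 ml/kg), and were examined at 30 weeks, so that both genotypes compared here had the same treatment. The comparison asks how gene expression in the injured, non-tumorous liver differs when hepatocytes lack G9a.

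NRF2, encoded by Nfe2l2, is a transcription factor that KEAP1 holds in the cytoplasm and passes on for degradation. Oxidants and electrophiles modify KEAP1, NRF2 then pairs with a small MAF protein on antioxidant response elements, and genes for glutathione synthesis, quinone reduction and thioredoxin recycling are transcribed. In liver this system meets the reactive products that cytochrome P450 enzymes make from compounds such as CCl4, while metallothioneins, induced through the metal-sensing factor MTF1, bind zinc and copper.

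Values are MAS5 signals, intensities on a linear scale that were scaled to 1 mean per array. The 2% trimmed mean was 500.0 on every array, and 43.9% and 42.8% of probe sets were Present on the G9aKO arrays, against 41.9% and 41.3% on the WT arrays. The 95% quantile of the signals called Absent lay between 170.5 and 181 over the 4 arrays, so signals below that level say little about order. The targeted gene Ehmt2 had signals of 174 and 164 in G9aKO livers, both called Absent, against 640 and 492 in WT livers, both Present (log2 fold change -1.73 ± 0.23 SE, limma adjusted p = 0.063). The annotation used here does not place this probe set relative to the deleted part of the gene. Fold changes are G9aKO minus WT on the log2 scale, from limma on all 10350 genes with Benjamini-Hochberg adjustment over all of them at a threshold of 0.05. The labels give no batch, date or pairing, and nothing shows how far the 2 arrays of a genotype differ for technical reasons, so p-values measure the spread between these arrays. An exact permutation test of 2 arrays against 2 could not go below p = 0.33 (two-sided).

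None of the 33 tested antioxidant genes passed the adjusted test (0 higher and 0 lower in G9aKO), where 0.319% of all tested genes passed as higher and 0.0676% as lower. At an unadjusted limma p under 0.05, 1 of the 33 genes was higher (Hmox1) and 4 were lower (Sqstm1, Gclm, Gpx4 and Sod2), beside 5.92% of all tested genes higher and 4.1% lower. Both counts rested on single arrays. The count of 1 was 0 without G9aKO replicate 1 and 3 without G9aKO replicate 2 or WT replicate 2, and the count of 4 was 0 without WT replicate 1 and 1 without G9aKO replicate 2, in fits where the lone array of a genotype is assumed to vary like the other genotype.

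Directions within the list were mixed but leaned to lower signals in G9aKO. In 14 of the 33 genes both G9aKO arrays lay below both WT arrays, against 19.3% of all tested genes, and in 6 both lay above, against 22.3%. The median log2 fold change was -0.06 over the 33 genes and 0.02 over all tested genes. The genes with lower signals were Sqstm1, Nqo1, Nqo2, Gclm, Gsr, Gss, Gpx4, Gpx1, Txn2, Txnrd2, Prdx2, Sod2, Sod1 and Cat. Those with higher signals were Nfe2l2, Mafk, Hmox1, Hmox2, Srxn1 and Prdx4. No test was made of the list as a whole, and the lean is read beside the brightness of these genes.

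Most of the antioxidant genes are brightly expressed in liver, and the brightest tested genes as a group leaned the same way. When all tested genes were split into 4 equal groups by mean signal, the brightest group held 21 of the 33 antioxidant genes. In that group of 2588 genes, 776 had both G9aKO arrays below both WT arrays and 412 had both above, with a median log2 fold change of -0.05. Of the 21 antioxidant genes in it, 10 lay below and 3 above, with a median of -0.10. In the dimmest group, which held 1 of them (Maff), 12.0% of all genes lay below and 27.3% above, with a median of 0.15. The contribution of brightness to the lean of the list was not tested. With each array centred on its own median, 16 of the 33 genes lay below and 6 above, beside 2686 and 1737 of all 10350 tested genes. With quantile normalization 13 lay below and 6 above, beside 2359 and 1846 of all tested genes, where 1999 and 2307 had done so without it.

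**Figure D1:**
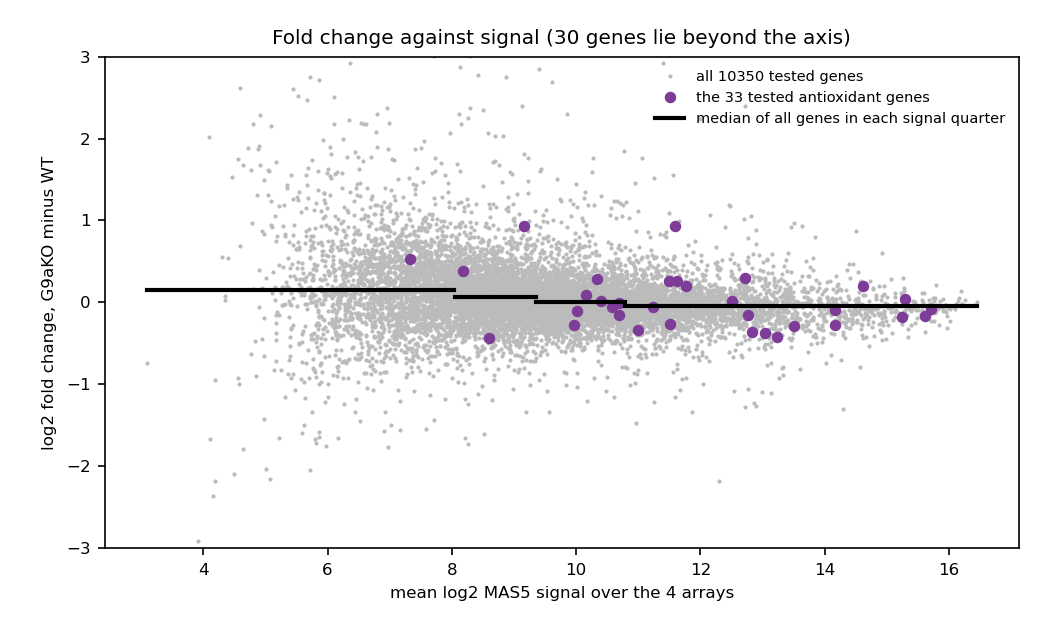
Log2 fold change, G9aKO minus WT, of each tested gene (y axis) against its mean log2 MAS5 signal over the 4 arrays (x axis); grey points are all 10350 tested genes, purple points the 33 antioxidant genes, and black lines the median of all genes in each of the 4 signal groups. Medians of all genes fall with signal, with 0.15 in the dimmest and -0.05 in the brightest group, where 21 of the 33 antioxidant genes lie; 30 genes with a log2 fold change beyond 3 in size are outside the plotted range.

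**Figure D2:**
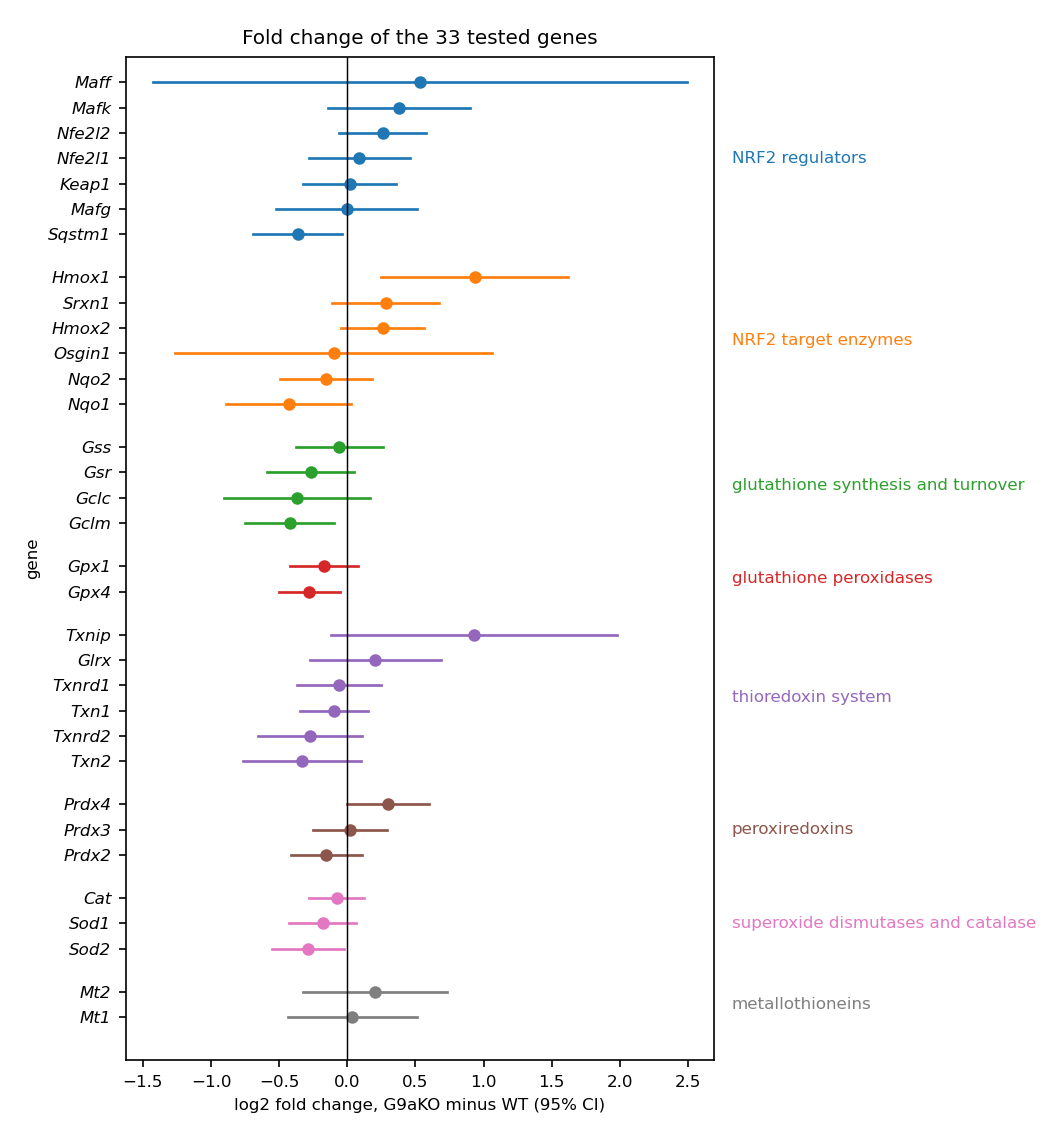
Log2 fold change, G9aKO minus WT (x axis), of the 33 tested genes grouped by role (y axis); points are limma estimates and lines their 95% confidence intervals, with 2 arrays per genotype. The intervals of Hmox1, Sqstm1, Gclm, Gpx4 and Sod2 leave out 0, and those of Maff, Osgin1 and Txnip are wide.

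The regulators of the pathway showed small differences. Nfe2l2 had signals of 3129 and 3184 in G9aKO livers, against 2834 and 2453 in WT livers. Both G9aKO values were the higher ones, by 0.26 ± 0.13 on the log2 scale (SE, n = 2 each, limma adjusted p = 0.573), but its other probe set went the other way, at -0.17. Keap1, which encodes the sensor that holds NRF2, had 1358 and 1361 in G9aKO livers, against 1278 and 1414 in WT livers. Its G9aKO values lay between the WT ones, and the 95% confidence interval of its log2 fold change ran from -0.33 to 0.36. Sqstm1 encodes p62, an autophagy adaptor that binds KEAP1 and is itself an NRF2 target. It had 7108 and 5821 in G9aKO livers, against 8517 and 8035 in WT livers, with no overlap (log2 fold change -0.36 ± 0.13 SE, limma adjusted p = 0.46). Its other, dim probe set overlapped.

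Of the small MAF partners of NRF2, Mafk lay higher on both G9aKO arrays (352 and 311, against 250 and 259 in WT livers), with a log2 fold change of 0.38 (limma adjusted p = 0.614). Mafg overlapped between genotypes. Maff was Present on 1 array of each genotype, with 108 and 349 in G9aKO livers, against 66.9 and 268 in WT livers, so that its arrays differed more within a genotype than between them. Nfe2l1, which encodes the related factor NRF1, also overlapped, with a log2 fold change of 0.09.

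**Figure D3:**
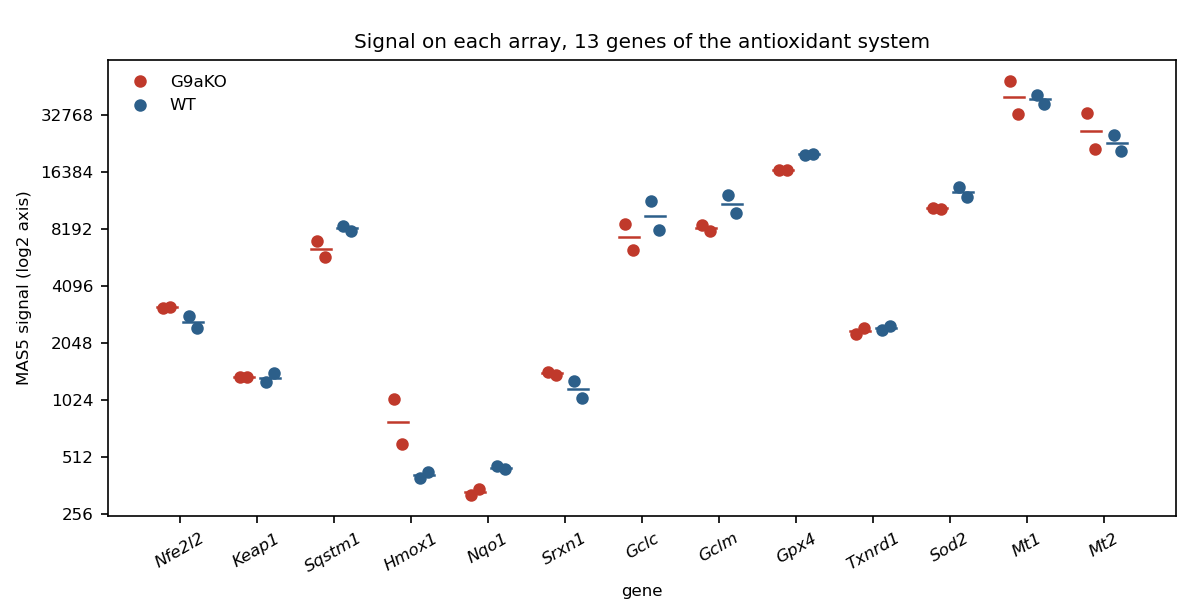
MAS5 signal (y axis, log2) of 13 genes (x axis) on each array, with G9aKO in red and WT in blue; points are single arrays, 2 per genotype, and horizontal lines their means on the log2 scale. Hmox1, Nfe2l2 and Srxn1 stand higher and Nqo1, Gclm, Gpx4, Sod2 and Sqstm1 lower on both G9aKO arrays, while Keap1, Txnrd1, Gclc, Mt1 and Mt2 overlap.

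The target enzymes did not move in 1 direction. Hmox1, which encodes the inducible heme oxygenase that opens the heme ring, had 1036 and 600 in G9aKO livers, against 399 and 426 in WT livers. Its log2 fold change was 0.93 ± 0.28 (SE, n = 2 each, limma adjusted p = 0.361), with a 95% confidence interval from 0.25 to 1.62. Without G9aKO replicate 1, the array with the higher value, the log2 fold change was 0.54. Macrophages, which recycle heme, also express Hmox1. The summed signal of 10 macrophage and Kupffer cell markers was 73622 and 47715 in G9aKO livers, against 34993 and 49607 in WT livers, with overlap. All 10 had a log2 fold change above 0, and 4 lay higher on both G9aKO arrays, as did 22.3% of all tested genes. These counts were 9 and 2 with median centring, and 9 and 4 with quantile normalization. The median over the macrophage markers, 0.38, was 0.10 without WT replicate 1 and 0.69 without G9aKO replicate 2. The part of these cells in the Hmox1 difference was not tested, and in whole liver a change in the number of cells of a type and in RNA per cell cannot be told apart. Hmox2, the constitutive heme oxygenase, was higher on both G9aKO arrays (3566 and 3322, against 2744 and 3012 in WT livers; log2 fold change 0.26, limma adjusted p = 0.553).

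Nqo1, which encodes a quinone reductase widely used as a readout of NRF2, had 322 and 348 in G9aKO livers, against 462 and 441 in WT livers. Both G9aKO values lay below both WT values, by 0.43 ± 0.19 on the log2 scale (limma adjusted p = 0.53). Nqo2, the related quinone reductase, also lay lower at its tested probe set (log2 fold change -0.16), and its fold change was below 0 at all 3 of its probe sets. Srxn1 encodes sulfiredoxin, which restores over-oxidised peroxiredoxins, and had 1445 and 1394 in G9aKO livers, against 1294 and 1053 in WT livers (log2 fold change 0.28 ± 0.16 SE, limma adjusted p = 0.624). A second probe set, Present on 2 arrays, went the other way, with a log2 fold change of -0.36. Osgin1, an oxidative stress-induced growth inhibitor, had 1392 and 722 in G9aKO livers, against 1660 and 695 in WT livers, so that its arrays differed within each genotype and the genotypes overlapped.

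The antioxidant response element has the core TGACNNNGC, which was searched on both strands of 300-base promoter windows (250 bases before to 50 after a RefSeq start, GRCm38.p6). It was found in 12.4% of all 32851 windows and in 13 of the 53 windows of the listed genes (24.5%), which belong to 11 of the 35 genes with a window. A wider form, TGACNNNGC or TGAGNNNGC, was added after the fold changes of the genes split by the first search had been seen, and was found in 27.8% of all windows and in 19 of the 53 windows (35.8%), which belong to 14 of the 35 genes. A gene can have several windows, some of which overlap, as those of Nfe2l1 do, so a site can count more than once. The share of all genes with a match was not computed. Among tested genes the 9 with a TGACNNNGC match had a median log2 fold change of 0.20 (5 above and 4 below 0) and the 21 without one -0.10 (8 above and 13 below). With the wider form the medians were 0.04 over 12 genes with a match and -0.09 over 18 without one, so that the gap between the medians depends on the letters searched. Gclm and Srxn1, described here, have matches. They differed in direction at their tested probe sets, but the second Srxn1 probe set (log2 fold change -0.36) went the same way as Gclm. Both windows are printed 5′ to 3′ with matches to the wider form in capitals. The Gclm window is on chr3:122245307-122245606, plus strand, and that of Srxn1 on chr2:152105274-152105573, plus strand.
Gclm: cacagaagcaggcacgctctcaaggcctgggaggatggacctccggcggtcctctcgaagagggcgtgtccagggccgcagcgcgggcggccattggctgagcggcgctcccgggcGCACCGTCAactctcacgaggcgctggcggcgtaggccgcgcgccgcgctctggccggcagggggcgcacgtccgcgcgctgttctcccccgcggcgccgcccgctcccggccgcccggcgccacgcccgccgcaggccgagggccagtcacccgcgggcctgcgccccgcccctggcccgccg
Srxn1: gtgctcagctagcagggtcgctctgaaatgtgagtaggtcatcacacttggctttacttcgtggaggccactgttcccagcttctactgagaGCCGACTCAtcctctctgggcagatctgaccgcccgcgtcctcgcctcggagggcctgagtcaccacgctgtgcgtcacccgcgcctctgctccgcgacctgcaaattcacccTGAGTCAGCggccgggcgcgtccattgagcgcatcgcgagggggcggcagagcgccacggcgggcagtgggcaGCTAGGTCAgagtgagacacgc
The first base of the Gclm match lies at -134 from the start, and those of the 3 Srxn1 matches at -158, -45 and 29; a match is a run of letters, not evidence of binding.

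At the tested probe sets, genes of glutathione synthesis and turnover shared a direction. The log2 fold change was below 0 in all 4 tested genes. Of these, 3 lay lower with no overlap, as did 19.3% of all tested genes. Only Gclm lay lower on both G9aKO arrays at its second probe set too. Gclm encodes the modifier subunit of glutamate-cysteine ligase, the enzyme of the first and rate-limiting step. It had 8554 and 8029 in G9aKO livers, against 12325 and 10000 in WT livers. The log2 fold change was -0.42 ± 0.13 (SE, n = 2 each, limma adjusted p = 0.393), with a 95% confidence interval from -0.75 to -0.09, and its second probe set gave -0.28. Gclc, the catalytic subunit of the same enzyme, had 8680 and 6356 in G9aKO livers, against 11454 and 8065 in WT livers. Its genotypes overlapped (log2 fold change -0.37 ± 0.22 SE, limma adjusted p = 0.633), and its second probe set gave -0.03, also with overlap. Gsr, glutathione reductase, had a log2 fold change of -0.27, and -0.07 with overlap at its second probe set. Gss, which adds glycine to complete glutathione, had one of -0.06. Its second probe set lay higher on both G9aKO arrays (0.08). Ggt1 has no probe set in the annotation used here and was not analysed.

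Both tested glutathione peroxidases lay lower in G9aKO. Gpx4, which reduces lipid peroxides in membranes and protects from ferroptosis, had 16682 and 16722 in G9aKO livers, against 20225 and 20354 in WT livers. The arrays of each genotype were close to each other, with a log2 fold change of -0.28 ± 0.09 (SE, n = 2 each, limma adjusted p = 0.401) and -0.23 at its second probe set. Gpx1, the cytosolic peroxidase, had a log2 fold change of -0.17 (limma adjusted p = 0.638). Gpx2 and Gpx3 were not tested. Gpx2, the gastrointestinal form, was Present on 0 arrays (142 and 33.3 in G9aKO livers, against 53.8 and 23.3 in WT livers). Gpx3, the secreted plasma form, was Present on 1 array (429 and 287 in G9aKO livers, against 330 and 405 in WT livers), and its genotypes overlapped.

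In the thioredoxin system, which returns electrons from NADPH to oxidised proteins, both mitochondrial members lay lower and the other 4 overlapped. Among all tested genes 19.3% lay lower. With each array centred on its own median, Txn1 and Txnrd1 lay lower on both G9aKO arrays too. Txnrd1, the cytosolic thioredoxin reductase and an NRF2 target, had 2279 and 2457 in G9aKO livers, against 2412 and 2526 in WT livers. These values overlapped, with a log2 fold change of -0.06 and a 95% confidence interval from -0.37 to 0.25. Txn1, the cytosolic thioredoxin, also overlapped (log2 fold change -0.10). Txn2 and Txnrd2, the mitochondrial thioredoxin and its reductase, had log2 fold changes of -0.34 and -0.27 with no overlap (limma adjusted p = 0.587 and 0.62), and lay below 0 at all 3 and all 4 of their probe sets.

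Txnip, which encodes a protein that binds and inhibits thioredoxin and restrains glucose uptake, was chosen for mention after its values were seen. It had 5647 and 3199 in G9aKO livers, against 1484 and 3357 in WT livers, and its log2 fold change was 0.93 ± 0.43 (SE, n = 2 each, limma adjusted p = 0.543). The genotypes overlapped and the size rested on WT replicate 1, the lowest array, without which it was 0.34. At the second Txnip probe set it was 0.30, also with overlap. Glrx, glutaredoxin, also overlapped (log2 fold change 0.21).

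Peroxiredoxins reduce hydrogen peroxide through thioredoxin. Of the 6 listed, Prdx2, Prdx3 and Prdx4 were tested. Prdx1 was read only by probe sets that also name another gene, and Prdx5 and Prdx6 have none in the annotation used here, so these 3 were not analysed. Prdx4, the form of the endoplasmic reticulum, also chosen after its values were seen, had 7570 and 7471 in G9aKO livers, against 6623 and 5630 in WT livers (log2 fold change 0.30 ± 0.12 SE, limma adjusted p = 0.499). All 3 of its probe sets that were Present on at least 2 arrays lay above 0, from 0.12 to 0.65. Prdx2, a cytosolic form, lay lower (-0.16) at its tested probe set and higher (0.12) at the second, and Prdx3, the mitochondrial form, had a log2 fold change of 0.02.

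Sod1, Sod2 and Cat each lay lower on both G9aKO arrays, although with quantile normalization 2 of the 3 did, and the log2 fold change of Cat was then -0.0049. Sod2, the mitochondrial enzyme that turns superoxide into hydrogen peroxide, had 10589 and 10458 in G9aKO livers, against 13665 and 12094 in WT livers. The log2 fold change was -0.29 ± 0.11 (SE, n = 2 each, limma adjusted p = 0.471), and its 3 probe sets lay between -0.38 and -0.01. Sod1, the cytosolic copper and zinc enzyme, had a log2 fold change of -0.18 at its tested probe set but ranged from -0.30 to 0.12 over 4 probe sets. Cat, the peroxisomal catalase, had 51866 and 53133 in G9aKO livers, against 55285 and 55613 in WT livers, a log2 fold change of -0.08. Sod3, the extracellular form, was Present on 0 arrays and was not tested.

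The probe sets of a gene often disagreed at this size of difference. Of 21 genes with 2 or more probe sets Present on at least 2 arrays, 15 had 1 sign at all of them, 10 below 0 and 5 above. The remaining 6 (Nfe2l2, Mafg, Srxn1, Gss, Prdx2 and Sod1) had both signs, so the direction of each depends on the probe set read.

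**Figure D4:**
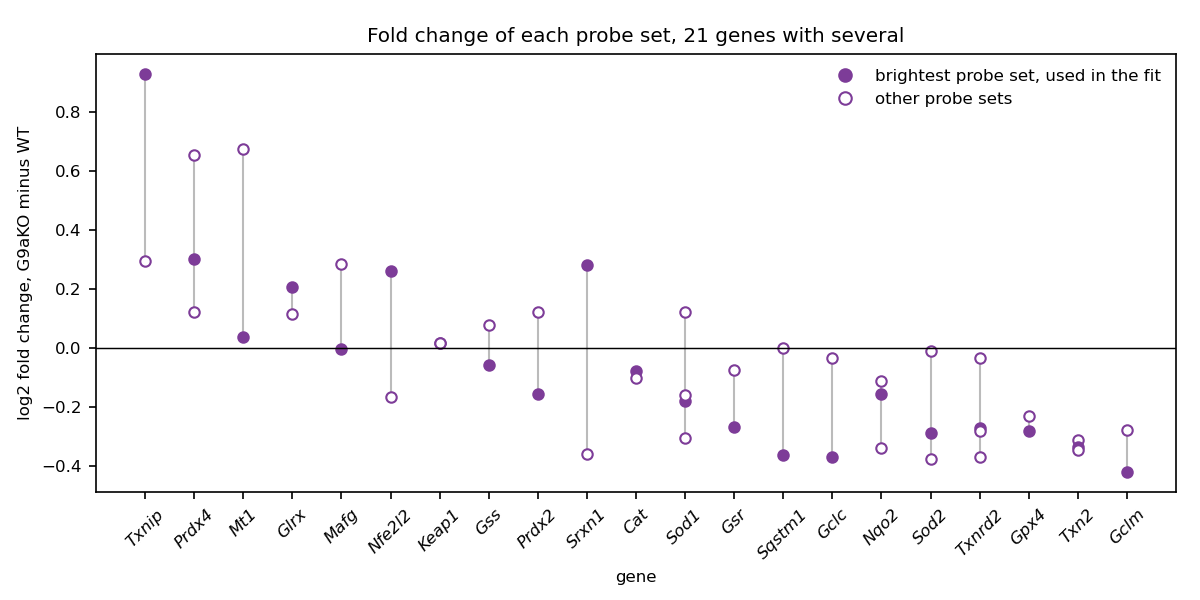
Log2 fold change, G9aKO minus WT (y axis), of every probe set Present on at least 2 arrays for the 21 genes that have several (x axis); filled points are the brightest probe set, used in the fit, and open points the others. The probe sets of Gclm, Gpx4 and Txn2 all lie below 0, and those of Srxn1, Nfe2l2, Mafg, Gss, Prdx2 and Sod1 lie on both sides of it.

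The metallothioneins overlapped between genotypes. Mt1 had 49628 and 33163 in G9aKO livers, against 41617 and 37561 in WT livers, and Mt2 had 33355 and 21638 in G9aKO livers, against 25693 and 21242 in WT livers. In both genes G9aKO replicate 1 was the highest of the 4 arrays, and the G9aKO arrays differed from each other more than the genotype means did. The log2 fold changes were 0.04 ± 0.19 for Mt1 and 0.20 ± 0.22 for Mt2 (SE, n = 2 each, limma adjusted p = 0.966 and 0.794), and without G9aKO replicate 1 they were -0.25 and -0.11. A second, dim Mt1 probe set had 645 and 488 in G9aKO livers, against 709 and 174 in WT livers. The windows of the 2 genes lie close together on mouse chromosome 8 (Mt2 at chr8:94172368-94172667 and Mt1 at chr8:94178839-94179138, both plus strand, GRCm38.p6). They are printed because both genes carry several matches to the core of the metal response element, TGCACNC or TGCGCNC on either strand, shown in capitals, which 25.7% of all windows hold at least once.
Mt1: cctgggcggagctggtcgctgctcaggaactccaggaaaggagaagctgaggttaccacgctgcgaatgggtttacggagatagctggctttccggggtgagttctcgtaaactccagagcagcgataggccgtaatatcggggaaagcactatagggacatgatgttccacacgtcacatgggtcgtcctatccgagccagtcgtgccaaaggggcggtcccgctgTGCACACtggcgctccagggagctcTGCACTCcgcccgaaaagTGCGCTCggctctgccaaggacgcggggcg
Mt2: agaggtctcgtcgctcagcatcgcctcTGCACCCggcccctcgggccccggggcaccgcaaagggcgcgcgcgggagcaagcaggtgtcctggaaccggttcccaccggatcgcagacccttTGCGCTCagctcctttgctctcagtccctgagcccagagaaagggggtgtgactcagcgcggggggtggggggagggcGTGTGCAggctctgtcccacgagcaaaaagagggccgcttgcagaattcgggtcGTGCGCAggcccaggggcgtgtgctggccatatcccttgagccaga
Mt1 held 3 matches and Mt2 held 4, and Mt2 also held a TGACNNNGC match at -79. The Gclm window printed earlier also held 3 matches to the metal response element core, not in capitals there. Such matches occurred in 20.8% of the windows of the listed genes.

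Other genes of the same pathways, from 6 lists that hold none of the 40 genes, were read in the same fit. Of 64 listed, 54 were tested and 0 passed the adjusted test. At an unadjusted limma p under 0.05, 3 were higher and 11 lower, beside 5.92% and 4.1% of all tested genes. Other NRF2 target genes showed the widest spread. Of the 13 tested, 8 lay lower on both G9aKO arrays and 3 higher, beside 19.3% and 22.3% of all tested genes, and 2 overlapped. Ugdh, which makes UDP-glucuronic acid for conjugation, had 7014 and 6239 in G9aKO livers, against 12029 and 10418 in WT livers (log2 fold change -0.76 ± 0.13 SE, limma adjusted p = 0.113). The carbonyl reductase Cbr1 had 3358 and 5033 in G9aKO livers, against 8813 and 8561 in WT livers (-1.08 ± 0.20 SE, limma adjusted p = 0.145). Without G9aKO replicate 2 it passed the threshold (log2 fold change -1.37, limma adjusted p = 0.0208). Cbr3, a second carbonyl reductase, and the exporter Abcc4 had log2 fold changes of -1.18 and -1.19.

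The 3 targets that lay higher, Me1, Pgd and Tkt, encode malic enzyme, 6-phosphogluconate dehydrogenase and transketolase, the first 2 of which make NADPH, with log2 fold changes of 0.60, 0.55 and 0.23 (limma adjusted p = 0.404, 0.481 and 0.515). The median over the 13 genes was -0.24, or -0.12 with quantile normalization, and ran from -0.30 to -0.18 with 1 array left out. Of 13 thioredoxin-fold, selenoprotein and methionine sulfoxide reductase genes, 7 lay lower on both G9aKO arrays and 0 higher, beside 19.3% and 22.3% of all tested genes. With median centring these counts were 9 and 0, and with quantile normalization 7 and 2. Those lower without either included Gpx7, a dimmer gene for a peroxidase of the endoplasmic reticulum (log2 fold change -0.71). Glrx5, a mitochondrial iron-sulfur glutaredoxin (-0.45), and Sephs2, which makes the selenium donor for selenoproteins (-0.42), were also among them. Among 10 glutathione and cysteine genes, Cth, which makes cysteine from cystathionine, had a log2 fold change of -0.42 (limma adjusted p = 0.23), while 3 lay lower and 2 higher in all. The 6 tested NADPH oxidase genes, phagocyte subunits except Nox4, had a median of 0.42, and Cybb is also in the macrophage marker list. Without G9aKO replicate 1 the median was -0.16. Nox4, the form that hepatocytes and stellate cells express, had a log2 fold change of -0.56, and the phagocyte subunit Ncf1 of 0.74. Of 7 zinc and metal handling genes, 3 lay higher (Slc39a14, Slc39a10 and Mtf1) and 1 lower (Slc39a8), with a median of 0.26 that was -0.24 without WT replicate 2. The 5 tested other NRF2 regulators had a median of 0.04, and Cul3, the ubiquitin ligase scaffold that KEAP1 recruits, lay lower on both G9aKO arrays (-0.14).

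**Figure D5:**
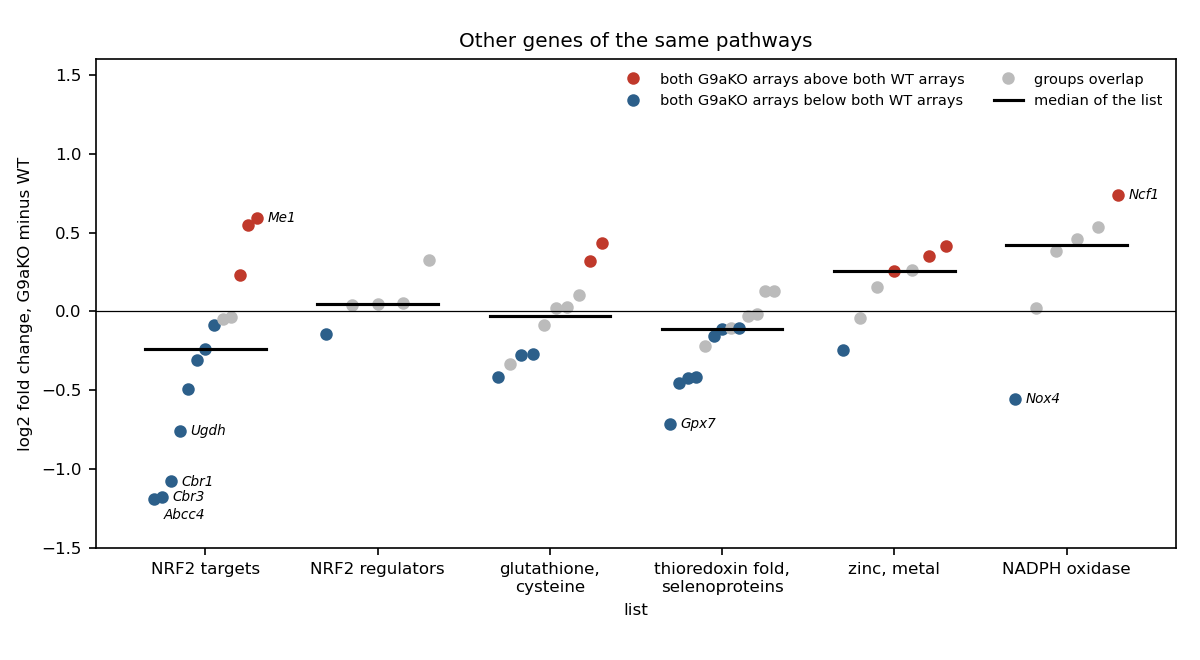
Log2 fold change, G9aKO minus WT (y axis), of 54 other genes of the same pathways in 6 lists (x axis); red points lie higher and blue points lower on both G9aKO arrays than on both WT arrays, grey points overlap, and black lines are list medians. The NRF2 target list reaches from -1.19 (Abcc4) to 0.60 (Me1), and none of the 54 genes passed the adjusted test.

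The make-up of the tissue as read from markers is given beside these values. The summed signal of 8 hepatocyte markers was 518755 and 453690 in G9aKO livers, against 525325 and 484330 in WT livers, and all 8 overlapped. With median centring all 8 had a log2 fold change below 0, and 4 lay lower on both G9aKO arrays. With quantile normalization 5 lay above 0 and 3 below, and 1 lay higher on both G9aKO arrays. Stellate cell and fibroblast markers summed to 17891 and 10907 in G9aKO livers, against 8913 and 13396 in WT livers, with overlap. All 7 tested had a log2 fold change above 0 and 5 lay higher on both G9aKO arrays, as did 22.3% of all tested genes. Of these 5, Acta2 was Present on 2 arrays. Col1a1 had 150 and 93.0 in G9aKO livers, against 79.6 and 81.9 in WT livers, all below the Absent level. The median of 0.64 over the 7 was 0.20 without G9aKO replicate 1 and 1.24 without G9aKO replicate 2. Of the cholangiocyte markers, Krt19, Krt7, Epcam and Cldn7 were not Present on 2 arrays, and of 7 T and NK cell markers 1 was tested. G9aKO replicate 1 was the highest array and WT replicate 1 the lowest for both the macrophage and the stellate sums. The part of these cells in the values of the antioxidant genes was not tested.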

How the data were processed

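RNA of non-tumorous liver was measured on 4 GeneChip Mouse Genome 430 2.0 arrays, 2 G9aKO and 2 WT, grouped from the labels. The submitters' processing notes name MAS5 as the tool the authors used, without a version. Each deposited value is a linear intensity scaled per array, and the authors gave it a detection p-value and call. The series matrix held the same signals (largest relative difference 5.0e-06). The array's annotation named 1 gene for 34945 of 45101 probe sets, and probe sets naming several genes were not used.

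A gene was represented by its brightest probe set Present on at least 2 arrays. Log2 signals, with no pseudocount, were compared with limma 3.58.1 (lmFit, then eBayes with the trend option) in R 4.3.3, with 2 residual and 4.02 prior degrees of freedom and Benjamini-Hochberg adjustment at 0.05. The script was tested on simulated data. The number of arrays limits the precision. Values on every array were given for those of the 40 genes with an unadjusted p under 0.05 or a log2 fold change of at least 1 in size, and for Nfe2l2, Keap1, Nqo1, Hmox1, Gclc, Gclm, Srxn1, Txnrd1, Mt1 and Mt2; other genes so described, and the genes named from the other lists, were chosen after their values were seen. Promoter windows came from RefSeq (GRCm38.p6); 35 of the 40 genes had one. The genes, the lists and the markers were chosen with earlier results of these data known. Alternatives covered probe sets, the detection filter, scaling, an added 32 to each signal, the trend, the methods' t-test and each array left out; the brightness groups, the leave-one-out medians of the other NRF2 targets and the wider promoter motif were added after seeing the data.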

Additional observations from a re-analysis of the deposited data

How the results depend on the processing

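Under the 13 alternatives 0 of the 33 antioxidant genes passed the adjusted test in either direction. Of 169 values of the 13 named genes, 162 kept their direction and 7 did not, with a lowest adjusted p of 0.0759 (limma). The reversed values belong to Keap1, Mt1 and Mt2. The log2 fold change of Keap1 was -0.046 with median centring and -0.005 with quantile normalization, and ran from -0.057 to 0.089 with 1 array left out (-0.057 without WT replicate 1). That of Mt1 was -0.026 with median centring and ran from -0.25 (without G9aKO replicate 1) to 0.33 with 1 array left out (-0.037 without WT replicate 2). That of Mt2 ran from -0.11 (without G9aKO replicate 1) to 0.51. The count of genes higher at an unadjusted p under 0.05, which was 1, became 2 with every probe set on its own, with no detection filter, with quantile normalization and with 32 added to each signal, 0 with the methods' t-test, and 0 to 3 with 1 array left out. The count lower, which was 4, became 7 with median centring, 1 with no mean-variance trend and 0 to 3 with 1 array left out. The median log2 fold change of the 33 genes, -0.06, was -0.12 with median centring, -0.017 with quantile normalization and -0.096 to -0.061 with 1 array left out. Among the other pathway genes 0 to 1 passed with 1 array left out. Over all genes 33 passed as higher and 7 as lower; 11 and 4 did with no detection filter, 0 and 0 with no trend or with the methods' t-test, and 54 and 17 without G9aKO replicate 2. The cause of these shifts was not tested. No paired analysis was possible because the labels carry no shared replicate numbers. Signals near the Absent level limit what can be said of Gpx2, Sod3, Maff, Gpx7 and the marker Col1a1, and the detection calls what can be said of Gpx3.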
